A study of Mus musculus with 4 samples.

Results

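The genes of the cytosolic ribosome's own proteins were followed through single-cell RNA sequencing of dendritic cells (DCs) from mouse lymph nodes. Members were the gene rows named Rps or Rpl with a number and at most 1 further letter (a, x, l or y), together with Rplp0, Rplp1, Rplp2 and Rpsa. The rule found 80 members among 22631 gene rows, 31 of the small and 49 of the large subunit. Names outside it, among them Rps3a1, Rps27rt, Rpl22l1, Rpl7l1 and Rpl36al, were kept apart as a comparison list.

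All cells came from ear-draining lymph nodes of Tnfsf4KI/+ mice, which carry 1 allele reporting OX40L (Tnfsf4) as blue fluorescent protein (BFP). The ears were untreated, or were given MC903 on day 0, day 2 and day 4, with cells collected on day 5. MC903 (calcipotriol) is a vitamin D analogue used to raise the cytokine TSLP in skin. Migratory DCs were sorted as B220- CD11cint MHCIIhi cells, 5000 BFP+ and 7000 BFP- per treatment, and each population carried its own hashtag antibody. Each of the 4 populations was therefore 1 pool, of a number of mice that the sources used here do not state. The untreated and MC903 pools were loaded as 2 captures on different sequencing lanes, so treatment, capture and lane cannot be told apart. Age and sex of the mice, and the cells in which the reporter allele is active, are not stated there either. With 1 pool a population no test was made. Values are shares of UMIs (unique molecular identifiers, 1 per captured transcript) or counts scaled to 1000000 UMIs (CPM), with exact 95% intervals. The intervals cover counting error only.

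A ribosome joins a small subunit, which reads the mRNA, to a large subunit, which forms the peptide bond, and each subunit is ribosomal RNA clothed with proteins, mostly in single copies. Because most are needed in equal numbers, their mRNAs are made at high levels and translated under shared control. Most of these mRNAs begin with a cytosine and a run of pyrimidines, the 5′ terminal oligopyrimidine (TOP) motif, through which mTORC1 and the RNA-binding protein Larp1 govern their translation. Resting lymphocytes are small cells with little cytoplasm, and their polyadenylated RNA is known to be rich in these messages. Mature migratory DCs devote much of their RNA to actin regulators, chemokines and antigen presentation.

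The starts of several members are shown because the TOP motif is defined there, and because the genes set apart by the results can be compared with leading members of the group. RefSeq promoter windows (GRCm38.p6) were matched by symbol for 60 of the 80 members. Each line gives 30 bases, 5′ to 3′ on the gene's strand, and the annotated start is base 16. Capitals mark the longest unbroken run of C or T. Where RefSeq lists several starts of a gene, the most upstream is shown.
Rps9 (chr7:3704026-3704055, + strand): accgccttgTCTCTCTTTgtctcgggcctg
Rps24 (chr14:24490663-24490692, + strand): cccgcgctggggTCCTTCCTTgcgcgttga
Rpl27a (chr7:109519180-109519209, + strand): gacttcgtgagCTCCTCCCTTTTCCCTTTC
Rplp2 (chr7:141447636-141447665, + strand): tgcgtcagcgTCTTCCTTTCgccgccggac
Rps26 (chr10:128626492-128626521, - strand): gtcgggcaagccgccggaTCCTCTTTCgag
Rps27 (chr3:90213634-90213663, - strand): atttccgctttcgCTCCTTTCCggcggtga
Rps27l (chr9:66946071-66946100, + strand): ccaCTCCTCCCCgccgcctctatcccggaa
Rpl12 (chr2:32961697-32961726, + strand): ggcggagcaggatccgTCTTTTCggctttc
Rpsa (chr9:120127751-120127780, + strand): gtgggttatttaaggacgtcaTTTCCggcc
Rps19 (chr7:24884577-24884606, + strand): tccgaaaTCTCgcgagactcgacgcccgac
The pyrimidine run spans the start base in Rps9, Rps24, Rpl27a, Rplp2 and Rps27. It lies wholly downstream in Rps26, Rpl12 and Rpsa, and wholly upstream in Rps27l and Rps19. A run of at least 8 bases of C or T within these 30 bases was present in 26 of the 60 matched members (43.3%) and in 13.9% of all 27025 genes of the table. The motif CCGGAAG, on either strand of the whole window of 300 bases, was present in 25 of 60 members (41.7%) and in 9.93% of genes. AAGATGGC, on either strand, was present in 5 members (8.33%) and in 3.19% of genes. These matches describe letters near annotated starts, and a gene could count through any of its listed starts.

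The deposited matrices held 9520 untreated and 6316 MC903 barcodes, with 33525154 and 57148072 UMIs. Filters of 500 genes or more and no more than 10% mitochondrial UMIs left 8422 and 5636 barcodes, at median depths of 2622 and 9219 UMIs. To compare shares at 1 depth, each barcode was thinned to 2000 UMIs, which left out 1752 untreated and 101 MC903 barcodes and kept 6670 and 5535. Cell types were gated from marker lists, with at least 2 markers of 1 lineage. A barcode passing more than 1 list of a DC subtype or of another lineage was called mixed. So was a barcode passing the mature DC list together with another lineage's list. The plasma cell and erythroid lists took no part in this rule. Mixed barcodes numbered 1708 in the untreated capture and 428 after MC903, and they entered no group. A barcode joined a population when at least 80% of its hashtag counts came from 1 hashtag. That left 25.04% of kept untreated barcodes without a population, and 3.02% after MC903. The 2 captures shared 21 kept barcode sequences. As a check of the sort, the BFP transcript in the BFP+ and BFP- DCs was at 67.6 and 7.88 CPM untreated and at 91.0 and 9.23 CPM after MC903. The DC marker list summed to 9909 and 12842 CPM in gated DCs of the untreated and MC903 captures.

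In DCs the 80 members together made up 22.5% of UMIs in the untreated capture (4659 barcodes) and 20.3% after MC903 (4623 barcodes). Single barcodes spread around these values with an SD of 3.82 and 5.14 percentage points. Of the 80 members, 77 reached 20 CPM in the DCs of each capture, and 71 and 69 reached 1000 CPM. The median member stood at 2836 CPM untreated and 2483 CPM after MC903. The order of the 77 levels was close in the captures (Spearman's rho 0.97 across genes, which share libraries and are not independent). The members lie on 19 chromosomes, with 14 on chromosome 7. The annotation names 293 pseudogenes after 55 of them, and reads shared with such copies could not be placed with certainty. Single levels are therefore less sure than the sum.

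The most abundant member was Rpsa, a small-subunit protein also known as the laminin receptor, at 8909 CPM in untreated and 8644 CPM in MC903 DCs. Rps19, whose loss causes Diamond-Blackfan anaemia in humans, followed at 7658 and 7304 CPM. Rps24 stood at 5575 and 5494 CPM, Rps9 at 5628 and 5008 CPM, and Rpl27a at 4994 and 4734 CPM. UMIs were counted from the 3′ end, 1 per captured transcript, so these levels are not scaled by transcript length. These 5 genes held 14.6% of the members' UMIs untreated and 15.4% after MC903. The stalk proteins Rplp0, Rplp1 and Rplp2, which recruit the translation factors, were near each other at 3963, 4217 and 3414 CPM in untreated DCs. After MC903 they stood at 4171, 3645 and 3229 CPM.

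Copies named with a final l, which arose by duplication, were far below their partners with 1 exception. Rpl10l, known from testis, had 0 UMIs in DCs of either capture, which allows up to 0.322 CPM untreated and 0.324 CPM after MC903. Its partner Rpl10, a protein added late to the large subunit, stood at 2626 and 2210 CPM. Rpl3l, known from heart and skeletal muscle, had 9 UMIs untreated and 24 after MC903 (0.966 and 2.60 CPM), against 1769 and 1566 CPM of Rpl3. Rpl39l, also known from testis, had 93 and 79 UMIs (9.98 and 8.54 CPM), against 3284 and 3207 CPM of Rpl39, which lines the exit tunnel. The exception was Rps27l, at 851 CPM untreated and 940 CPM after MC903, against 3503 and 2872 CPM of Rps27.

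Cell types differed more in the ribosomal protein share than populations of DCs did. T cell-like barcodes devoted 35.4% of UMIs to the members in the untreated capture (n = 111 barcodes) and 39.6% after MC903 (n = 207). B cell-like barcodes devoted 30.7% (n = 113) and 34.1% (n = 226). Both lymphocyte groups are barcodes that came through a sort for migratory DCs, so they need not represent lymphocytes of the node. The plasma cell list, left out of the gating rule, summed to 1575 CPM in untreated and 653 CPM in MC903 B cell-like barcodes. Among DCs, the largest class, mature DCs without markers of a subtype, stood at 22.7% and 20.6%. Langerhans-like DCs stood at 21.7% and 19.8%, and cDC2-like DCs at 22.5% and 23.0%. Mature cDC1-like DCs had 21.2% untreated and 15.7% after MC903. The few less mature cDC1-like DCs gave 26.6% (n = 19) and 23.7% (n = 3). The 15 and 17 monocyte- or macrophage-like barcodes gave 15.8% and 15.7%. Mixed barcodes, at 24.6% and 28.8%, lay between DCs and lymphocytes. The DC subtypes sat close to their gate, with 238 of 267 untreated Langerhans-like and 331 of 429 mature cDC1-like barcodes carrying exactly 2 markers. The split between the subunits hardly moved, with 46.6% and 46.2% of the members' UMIs from the small subunit in DCs, 46.0% and 46.0% in T cell-like and 45.6% and 46.3% in B cell-like barcodes.

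**Figure D1:**
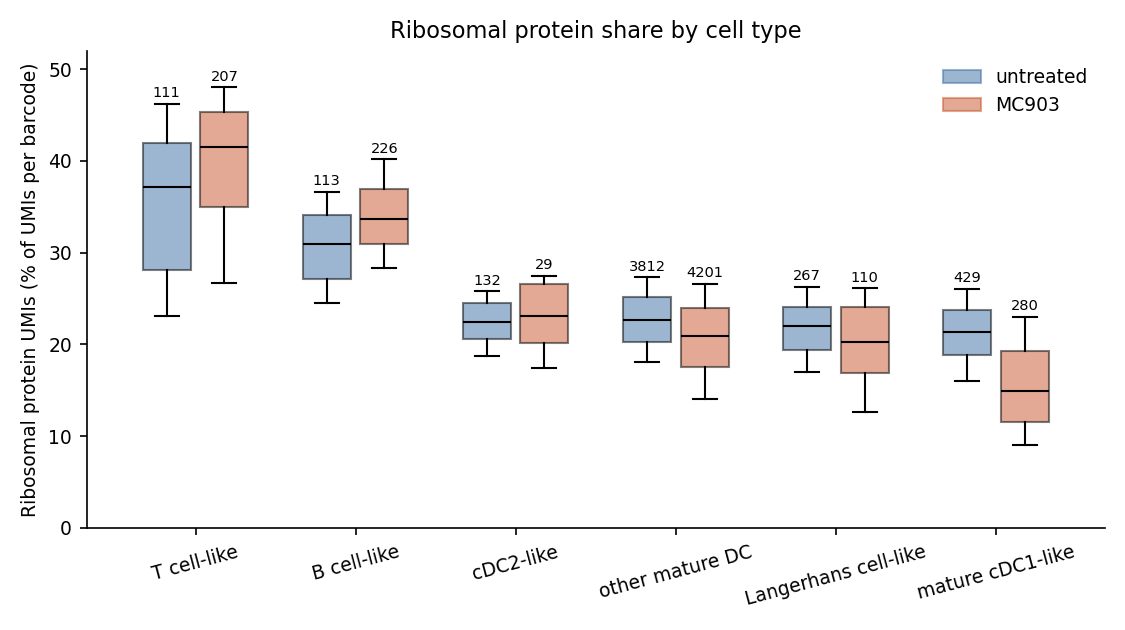
Share of each barcode's 2000 UMIs from the 80 ribosomal protein genes (y axis, percent) by gated cell type and capture. Boxes are quartiles over barcodes with the median as a line, whiskers reach the 10th and 90th percentiles, and numbers above are barcodes; T cell-like barcodes lie highest and mature cDC1-like barcodes after MC903 lowest.

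The share in T cell-like barcodes was 1.57-fold that of DCs in the untreated capture (log2 ratio 0.65, 95% interval 0.64 to 0.66) and 1.95-fold after MC903 (0.96, 0.96 to 0.97). For B cell-like barcodes it was 1.36-fold (0.45, 0.44 to 0.46) and 1.68-fold (0.75, 0.74 to 0.76). These ratios compare parts of a whole and not amounts per cell. Before thinning, the median barcode held 1656 member UMIs in untreated T cell-like, 1148 in B cell-like and 691 in DC barcodes. After MC903 these medians were 2088, 1114 and 1965, so B cell-like barcodes then held fewer member UMIs than DCs while their share was higher. Fewer transcripts of other genes and more of the members cannot be told apart from shares. Actb stood at 28079 CPM in untreated DCs and 8234 CPM in T cell-like barcodes, and at 19926 and 6920 CPM after MC903. Mitochondrial UMIs, a sign of RNA quality, were 6.0% in T cell-like, 6.88% in B cell-like and 4.17% in DC barcodes of the untreated capture, and 5.79%, 6.98% and 3.58% after MC903. Their part in the difference was not tested. With at most 5% mitochondrial UMIs allowed, the untreated T cell-like share was 34.9% in 30 barcodes and the DC share 23.0% in 3216. After MC903 these were 36.9% in 52 barcodes and 20.5% in 3745. The B cell-like share was then 31.6% in 22 untreated and 34.4% in 17 MC903 barcodes. The T cell list summed to 7392 and 6944 CPM in T cell-like barcodes and to 144 and 133 CPM in DCs. The B cell list summed to 6319 and 8500 CPM in B cell-like barcodes and to 66.4 and 18.1 CPM in DCs.

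Single members did not share the difference evenly. Taking 1.5-fold at 20 CPM or more in the higher group as apart, 49 of 77 members were higher in T cell-like barcodes than in DCs in the untreated capture, where 38.3% of 6096 genes were. After MC903 there were 64 of 77, where 33.9% of genes were. In B cell-like barcodes 26 members were higher untreated, against 39.5% of genes, a share below that background, though 73 of 77 members were above 0. After MC903 there were 54, against 33.1%. In each lymphocyte comparison genes can enter the background through the lymphocyte group alone. There few UMIs suffice, with 3 UMIs making 13.3 CPM in untreated B cell-like barcodes. The 77 members all had 20 CPM in DCs, so their shares and the background are not like for like. Each of the 4 comparisons had 1 member lower, Rps27l, where 28.5%, 32.6%, 27.7% and 32.3% of genes were lower. The median member had a log2 ratio of 0.67 and 0.999 in T cell-like barcodes (all genes 0.25 and 0.045) and of 0.48 and 0.81 in B cell-like barcodes (0.29 and 0.072). The 49 members higher in untreated T cell-like barcodes were all among the 64 after MC903, and the 26 of untreated B cell-like barcodes all among the 54.

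Rpl12, which sits at the base of the stalk, had the highest ratio to DCs in all 4 lymphocyte comparisons. It stood at 1914 CPM in untreated DCs, 6937 in T cell-like and 4827 in B cell-like barcodes, with log2 ratios of 1.86 (1.78 to 1.93) and 1.33 (1.25 to 1.42). After MC903 it stood at 1871, 8092 and 6060 CPM, with ratios of 2.11 (2.06 to 2.17) and 1.70 (1.64 to 1.75). In DCs it thus ranked 54th of the 80 members by UMIs, while in T cell-like barcodes it exceeded Rps9. Rps3, which lines the mRNA entry channel, stood at 2128 CPM in untreated DCs and 5243 CPM in T cell-like barcodes (1.30, 1.21 to 1.39), and after MC903 at 1951 and 6266 CPM (1.68, 1.62 to 1.74). Rpl8 stood at 2057 CPM in untreated DCs and 4707 CPM in T cell-like barcodes (1.19, 1.10 to 1.28). After MC903 it stood at 1702 and 5452 CPM (1.68, 1.62 to 1.74). Rplp1 of the stalk, at 4217 and 10126 CPM untreated (1.26, 1.20 to 1.33), had a higher ratio in T cell-like barcodes than its partners Rplp0 (3963 and 6905 CPM) and Rplp2 (3414 and 4459 CPM). Rpl5, which carries 5S ribosomal RNA into the ribosome, was among the 4 highest ratios in MC903 T cell-like barcodes, at 4070 against 1311 CPM (1.63, 1.56 to 1.71). In B cell-like barcodes Rpl8 (1.07, 0.98 to 1.17) and Rps2 (1.02, 0.93 to 1.10) were also among the 4 highest untreated. After MC903 Rpl8 (1.55, 1.48 to 1.61), Rps20 (1.35, 1.30 to 1.40) and Rpl10a (1.32, 1.24 to 1.40) followed Rpl12.

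The most abundant members of DCs were among those with the lowest ratios in lymphocytes. Rpsa stood at 8909 CPM in untreated DCs, 7635 in T cell-like (log2 ratio -0.22, -0.29 to -0.15) and 6562 CPM in B cell-like barcodes (-0.44, -0.52 to -0.37). After MC903 it stood at 8644 CPM in DCs, 8640 in T cell-like and 7409 CPM in B cell-like barcodes. Rps19 stood likewise, with 7658, 6468 and 6314 CPM untreated and 7304, 7179 and 6794 CPM after MC903. Rps9 stood at 5628, 5432 and 4898 CPM untreated and at 5008, 6157 and 5365 CPM after MC903. Rpl10 stood at 2626 CPM in untreated DCs and 2653 CPM in T cell-like barcodes (0.015, -0.11 to 0.13), and Rpl24 at 2402 and 2942 CPM in the MC903 capture. Rps24 combined a high level in DCs (5575 CPM) with a higher one in T cell-like barcodes (12626 CPM), where it was the leading member. Across the 77 members the ratios of the 2 captures followed each other, with Spearman's rho of 0.93 for T cell-like and 0.90 for B cell-like barcodes. The 2 captures were loaded separately, so the 21 kept barcode sequences found in both label different droplets. Genes, however, are not independent.

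**Figure D2:**
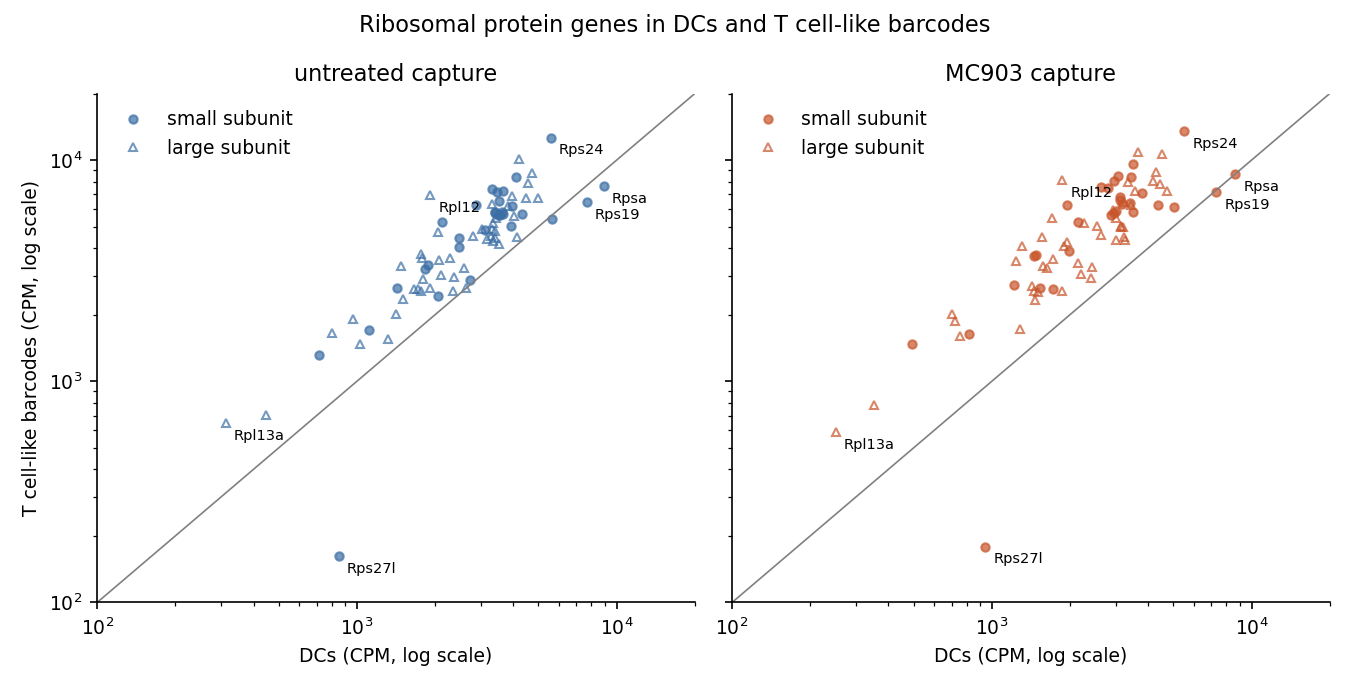
Level of the 77 ribosomal protein genes with at least 20 CPM in DCs (x axis) and in T cell-like barcodes (y axis), both in CPM on log scales, for each capture; filled circles are small-subunit and open triangles large-subunit genes, and the grey line marks equal levels. Most genes lie above the line, Rpsa and Rps19 on or just below it, and Rps27l far below.

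Rps27l was the member that went the other way. Known as a target of p53 in stressed cells, it encodes a near copy of Rps27, a zinc-finger protein of the small subunit. It stood at 851 CPM in untreated DCs, 162 in T cell-like and 350 CPM in B cell-like barcodes (36 and 79 UMIs). After MC903 it stood at 940, 179 and 155 CPM (74 and 70 UMIs). The log2 ratios to DCs were -2.39 (-2.91 to -1.92) and -2.39 (-2.75 to -2.07) for T cell-like and -1.28 (-1.62 to -0.96) and -2.60 (-2.96 to -2.26) for B cell-like barcodes. All 4 lymphocyte groups were thus below each DC group, and the untreated B cell-like level was above the other 3 lymphocyte levels. The 8 markers of mature DCs, none at 0, summed to 699 CPM in untreated B cell-like and 482 CPM in T cell-like barcodes, against 9909 CPM in untreated DCs, and to 509 and 355 CPM after MC903, against 12842 CPM. Part of that sum was Ccr7, which lymphocytes also make (584 CPM in untreated B cell-like barcodes). Among single genes high in DCs, untreated B cell-like barcodes had 4.42 CPM of Fscn1 (1939 CPM in DCs), 31.0 of Ccl22 (1492 CPM) and 487 CPM of Ccl5 (10938 CPM). The part of DC RNA in the Rps27l level of these barcodes was not tested. Within DCs Rps27l was even, at 838 CPM in untreated mature cDC1-like, 828 in Langerhans-like and 863 CPM in other mature DCs, and at 973, 905 and 942 CPM after MC903. Its partner Rps27 was higher in lymphocytes, at 3503, 5617 and 4858 CPM in untreated DCs, T cell-like and B cell-like barcodes.

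Between BFP+ and BFP- DCs of untreated mice the share differed little. It was 22.5% in 392 BFP+ barcodes (interval 22.4 to 22.6) and 22.4% in 3172 BFP- barcodes (22.4 to 22.4), a log2 ratio of 0.0075 (0.00039 to 0.015). That ratio changed sign under 4 of the alternative settings, so no direction is given. With HTODemux calls, which put 1442 DCs in BFP+ and 697 in BFP-, it was 0.043 (0.037 to 0.049). After MC903 the share was 21.3% in 1406 BFP+ barcodes and 19.9% in 3088 BFP- barcodes, a log2 ratio of 0.10 (0.096 to 0.10). Barcodes of either population overlapped widely, with SDs of 4.79 and 5.25 percentage points. No member was 1.5-fold apart in either comparison, where 11.7% of 5105 and 4.79% of 4923 genes were. Genes enter that background from 20 CPM up, while the median member stood at 2836 CPM in untreated and 2483 CPM in MC903 DCs. Members and background, here and in the later comparisons, are therefore not matched for level or for counting error. Members above 0 numbered 36 of 77 untreated and 61 of 77 after MC903. The median member had a log2 ratio of -0.0067 and 0.089, and the median of all genes was 0.016 and -0.025.

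The members highest in BFP+ DCs were partly shared by the captures. Rplp2 stood at 3911 CPM in BFP+ and 3299 CPM in BFP- cells of untreated mice (0.25, 0.19 to 0.30), and after MC903 at 3613 and 3043 CPM (0.25, 0.21 to 0.28). Rpl39 stood at 3633 and 3206 CPM (0.18, 0.12 to 0.24) and then at 3693 and 2987 CPM (0.31, 0.27 to 0.34). Rpsa stood at 9893 and 8613 CPM and then at 9326 and 8332 CPM. Rpl34, of the large subunit, stood at 3472 and 3102 CPM and then at 3373 and 2852 CPM. Those 4 genes were higher in BFP+ DCs of both captures by more than counting error. After MC903 Rpl12 led, at 2165 and 1739 CPM (0.32, 0.27 to 0.36), with Rps28 (1392 and 1145 CPM) and Rps18 (3168 and 2649 CPM). Rpl12 untreated was 1958 and 1836 CPM (0.092, 0.015 to 0.17).

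At the low end, untreated BFP+ DCs had 2658 CPM of Rpl35a and BFP- DCs had 3104 CPM (-0.22, -0.29 to -0.16), and after MC903 they had 2109 and 2347 CPM (-0.15, -0.20 to -0.11). Rps2 (-0.20, -0.27 to -0.12), Rps3 (-0.18, -0.26 to -0.11) and Rps6, the target of S6 kinases (-0.18, -0.26 to -0.10), were also low in untreated BFP+ DCs. After MC903 Rpl31 (-0.15, -0.26 to -0.04) and Rpl5 (-0.084, -0.14 to -0.027) were. Over the 77 members the ratios of the 2 captures had a Spearman's rho of 0.71, and 48 had the same sign. Markers of another DC type moved with the reporter. The mature cDC1 list summed to 151 CPM in untreated BFP+ and 366 CPM in BFP- DCs, and to 84.3 and 324 CPM after MC903. Within the other mature DCs the log2 ratio of shares after MC903 was 0.076 (0.071 to 0.081).

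Depth differed between populations even though barcodes were thinned, with medians of 6691.5 UMIs before thinning in untreated BFP+, 3043 in untreated BFP-, 10259 in MC903 BFP+ and 9653 in MC903 BFP- DCs. Among barcodes of 4000 to 8000 UMIs the share was 22.7% in untreated BFP+, 22.0% in untreated BFP-, 22.3% in MC903 BFP+ and 21.2% in MC903 BFP- DCs. From 8000 to 16000 UMIs it was 22.5%, 21.7%, 21.3% and 19.4%. From 2000 to 4000 UMIs it was 22.7%, 22.7%, 18.3% and 18.6%, the last 2 from 57 and 162 barcodes. BFP+ DCs thus had the higher share in each capture from 4000 to 16000 UMIs, and MC903 the lower share in each population at each depth shown. In the untreated capture the share was lower in DCs with more Ccr7, the receptor that guides DCs to the node. In 5 classes of Ccr7 UMIs, from 0 UMIs to 11 or more, it was 22.9%, 22.9%, 22.6%, 22.2% and 21.6%. After MC903 it went from 20.6% to 20.1% without a steady fall, with 20.2%, 20.4% and 20.3% in the classes between.

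**Figure D3:**
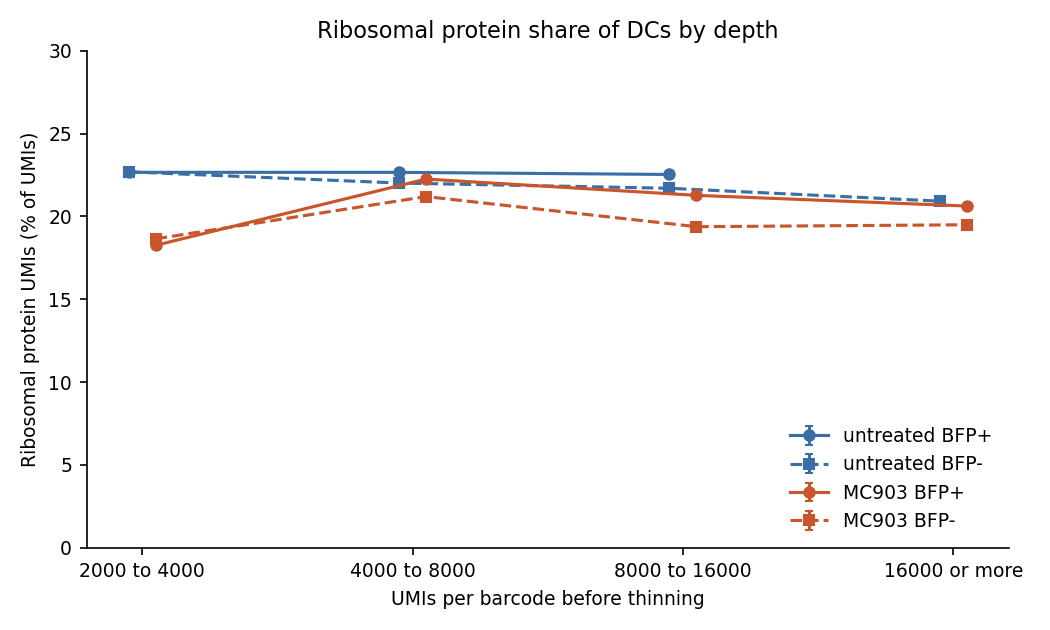
Share of UMIs from ribosomal protein genes in DCs (y axis, percent of 2000 UMIs per barcode) by the barcode's depth before thinning (x axis, UMIs), for the 4 populations, with exact 95% intervals of counting error that are mostly smaller than the symbols. From 4000 UMIs on, MC903 BFP- DCs lie lowest.

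After MC903 the members' share was lower in both populations of DCs. The log2 ratio to untreated was -0.082 (-0.090 to -0.075) in BFP+ and -0.18 (-0.18 to -0.17) in BFP- DCs. At 4000 to 8000 UMIs the ratios were smaller, -0.026 (-0.043 to -0.0093) and -0.055 (-0.062 to -0.047). T cell-like and B cell-like barcodes of the same captures went the other way, with log2 ratios of 0.16 (0.15 to 0.17) and 0.15 (0.14 to 0.16). The B cell list summed to 30.6 CPM in untreated and 19.9 CPM in MC903 BFP+ DCs, and to 67.5 and 16.0 CPM in BFP- DCs, and the part of such RNA in these differences was not tested. In BFP+ DCs 18 of 77 members were above 0 and in BFP- DCs 3 of 77. The median member had a log2 ratio of -0.085 and -0.19, and the median of all genes was -0.0035 and 0.028. These 2 treatment comparisons share no barcodes but share their captures.

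Only 1 member was 1.5-fold lower in each population, where 8.21% of 5081 genes in BFP+ and 4.95% of 5032 in BFP- DCs were lower. None was higher, where 7.24% and 5.5% of genes were. In BFP- DCs it was Rps26, near the mRNA exit site, at 2714 CPM untreated and 1706 CPM after MC903 (-0.67, -0.70 to -0.63), with 2407 and 1739 CPM in BFP+ DCs (-0.47, -0.55 to -0.39). Rpl36a stood at 985 and 721 CPM in BFP+ and at 961 and 701 CPM in BFP- DCs, and Rps10 at 1148 and 847 CPM and at 1110 and 807 CPM. In neither population did a member pass 1.5-fold without thinning. Rpl35 was also among the 4 lowest in BFP- DCs (1029 and 747 CPM). Rps26 was lower after MC903 in B cell-like barcodes too (3248 and 2597 CPM, -0.32, -0.46 to -0.19), and in T cell-like barcodes it stood at 2874 and 2623 CPM (-0.13, -0.27 to 0.012).

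At the high end of the treatment comparison, Rplp0 stood at 4068 CPM in untreated and 4541 CPM in MC903 BFP+ DCs (0.16, 0.10 to 0.22), and at 3893 and 3998 CPM in BFP- DCs (0.038, 0.013 to 0.064). In BFP+ DCs Rpl12 (1958 and 2165 CPM), Rpl32 (3264 and 3608 CPM) and Rpl24 (2392 and 2604 CPM) followed. In BFP- DCs Rps27l led, at 845 and 954 CPM (0.17, 0.12 to 0.23), followed by Rplp0 and then Rpl23a (1417 and 1423 CPM). Those were the 3 members above 0 there, and Rpl27 (2361 and 2345 CPM) came next, just below 0.

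**Figure D4:**
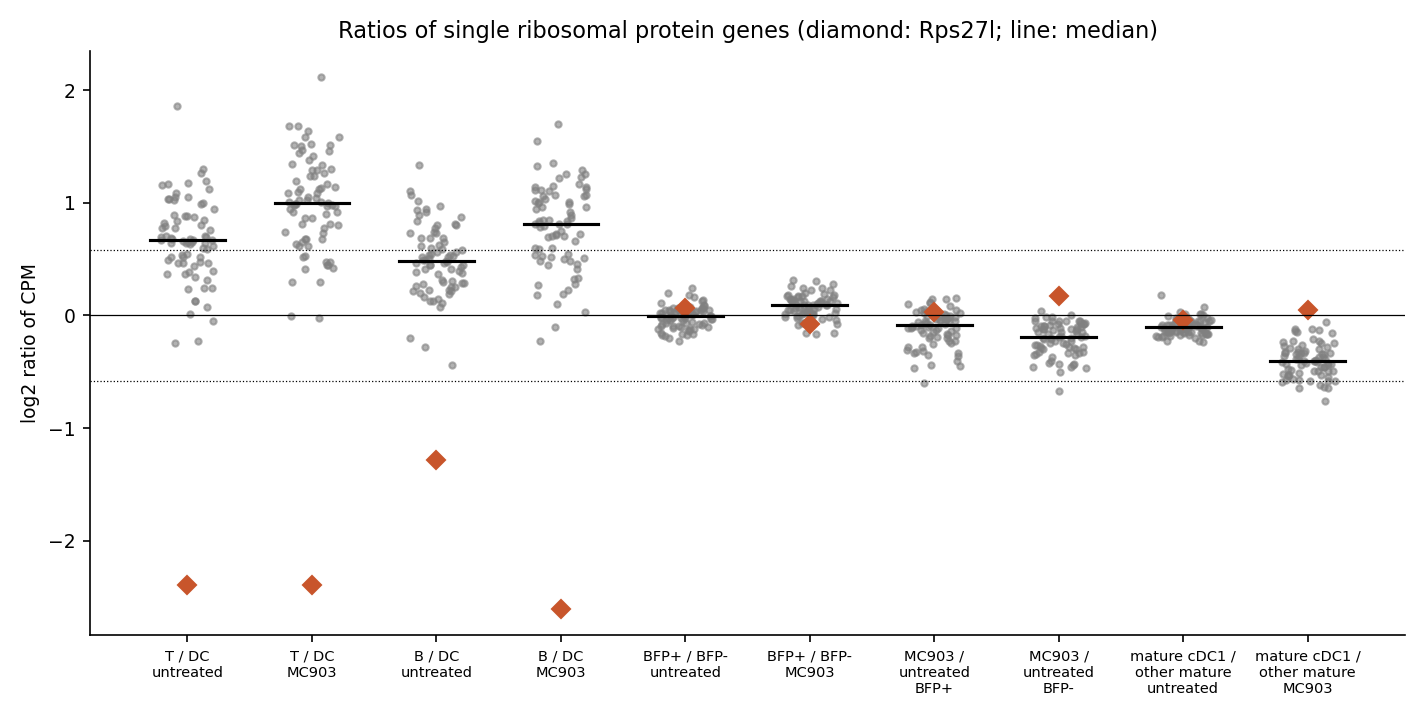
Log2 ratio of CPM (y axis) for the 77 ribosomal protein genes with at least 20 CPM, in 10 comparisons (x axis); each grey point is a gene, the diamond is Rps27l, the black line is the median and the dotted lines mark 1.5-fold. Ratios spread widely in the lymphocyte comparisons and stay within 1.5-fold in both reporter comparisons, and Rps27l is the lowest gene in all 4 lymphocyte comparisons.

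Mature cDC1-like DCs, gated on markers such as Apol10b and Laptm4b, had the lowest share among the DC classes of each capture, except that at 1000 UMIs per barcode untreated Langerhans-like DCs lay below them (20.8% and 20.9%). Against the other mature DCs the log2 ratio of shares was -0.10 (-0.11 to -0.094) untreated and -0.39 (-0.40 to -0.38) after MC903. Members were below 0 in 70 of 77 cases and 76 of 77. Their medians were -0.10 and -0.41, against 0.0051 and -0.016 for all genes. No member was 1.5-fold lower untreated, where 4.03% of 5013 genes were, and 6 were after MC903, where 13.8% of 5022 genes were. Those 6 were Rps18 (2887 CPM in other mature and 1702 CPM in mature cDC1-like DCs, -0.76, -0.86 to -0.67), Rps13 (3233 and 2068 CPM), Rpsa (8917 and 5711 CPM), Rpl12 (1913 and 1234 CPM), Rpl5 (1330 and 866 CPM) and Rpl6 (1925 and 1277 CPM). Rps27l was the only one above 0 (942 and 973 CPM). Mature cDC1-like barcodes had fewer mitochondrial UMIs, 2.72% against 3.60%, and median depths of 10498 and 9876 UMIs. Between captures their share went from 21.2% to 15.7% (log2 ratio -0.43, -0.44 to -0.42), and 16 members were 1.5-fold lower, where 14.4% of 5046 genes were. Rpl5 (1628 and 866 CPM) and Rps26 (2513 and 1361 CPM) were among the 4 lowest ratios. The size of these differences rests on the settings. Without thinning, where 662 and 743 barcodes passed the gate, the log2 ratio between captures was -0.23 and that to the other mature DCs after MC903 -0.24, and at 4000 to 8000 UMIs they were -0.20 and -0.27. With 3 markers required, in 117 and 92 barcodes, they were -0.47 and -0.52. The 6 members lower than in other mature DCs became 0 without thinning and at 4000 to 8000 UMIs, where 1.44% and 25.1% of genes were lower. With 3 markers they became 30 of 78, where 21% of genes were. The 16 lower between captures became 1 without thinning, 6 at 4000 to 8000 UMIs and 24 with 3 markers. The shares of all genes lower were 5.3%, 29.6% and 24.7%.

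Langerhans-like DCs had log2 ratios of shares to the other mature DCs of -0.062 (-0.070 to -0.053) untreated and -0.057 (-0.071 to -0.043) after MC903. With 3 markers required, in 36 and 14 barcodes, these were -0.17 and -0.13, without thinning -0.078 and -0.16, and at 1000 UMIs -0.12 and -0.031. No member was 1.5-fold apart, where 16.4% and 34.2% of genes were. Rpsa was low in them, at 7706 CPM against 9195 CPM untreated (-0.25, -0.30 to -0.21) and 6641 against 8917 CPM after MC903 (-0.43, -0.50 to -0.35). Rps19 was above, at 8238 against 7737 CPM and at 8527 against 7405 CPM. Rps19 therefore exceeded Rpsa in Langerhans-like DCs of both captures, while Rpsa exceeded Rps19 in the other mature and mature cDC1-like DCs.

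Genes that build ribosomes summed to less in DCs than in lymphocytes. Of 28 such ribosome biogenesis genes, 10 and 8 reached 20 CPM in DCs of the untreated and MC903 captures. Of all 22631 gene rows, 5105 and 4923 reached 20 CPM in the higher of the BFP+ and BFP- DCs. All 28 summed, with no minimum, to 1093 CPM in DCs, 2450 in T cell-like and 3270 CPM in B cell-like barcodes untreated. After MC903 they summed to 916, 2360 and 2478 CPM. The log2 ratios of these sums to DCs were 1.16 and 1.37 for T cell-like and 1.58 and 1.44 for B cell-like barcodes. Many of the genes pass 20 CPM in lymphocytes alone, so no count of genes apart is given for them. Ncl, the nucleolar protein nucleolin, stood at 209 CPM in untreated DCs, 495 in T cell-like and 907 CPM in B cell-like barcodes. Dkc1, which modifies ribosomal RNA, stood at 12.2 CPM in untreated DCs and 72.1 CPM in T cell-like barcodes, and Nop58, a partner in RNA modification, at 22.3 and 126 CPM. In the 4 DC population comparisons none of those with 20 CPM was higher. Nop10 and Nop58 were the genes lower after MC903, in BFP+ DCs (-0.94 and -0.84) as 2 of 9, where 8.21% of genes were, and in BFP- DCs (-0.94 and -0.62) as 2 of 10, where 4.95% were.

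Genes that share the TOP control but encode other proteins made up a list of 23. Of these, 9 were higher in untreated T cell-like barcodes, a share near the 38.3% of all genes, and 11 after MC903, where 33.9% of genes were. Lower were 3 and 1, where 28.5% and 32.6% of genes were. Their median log2 ratios were 0.29 and 0.50, against 0.67 and 0.999 for the members and 0.25 and 0.045 for all genes. In B cell-like barcodes 6 were higher untreated, below the background of 39.5%, and 8 after MC903, near that of 33.1%, with 0 and 1 lower against 27.7% and 32.3%. The elongation factor Eef1g was high in lymphocytes (1.53 in MC903 T cell-like barcodes), as were Eef1b2 (1.45) and Rack1, a protein of the small subunit's head (1.37), while the initiation factor Eif4b was low (-0.96). Eef1a1, which delivers aminoacyl-tRNA, stood at 5575 CPM in untreated DCs and 7716 CPM in T cell-like barcodes. In the 4 DC population comparisons none of the 23 was 1.5-fold apart. Of the mitochondrial ribosome's proteins, made for another ribosome, 40 of 41 listed genes had 20 CPM in T cell-like barcodes or DCs of each capture. Higher in T cell-like barcodes were 15 in each capture, shares near the 38.3% and 33.9% of all genes, and lower were 6 and 4, below the 28.5% and 32.6%. Their medians were 0.31 and 0.45.

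Of 25 regulators of mTORC1 and TOP mRNAs, 18 had 20 CPM in untreated T cell-like barcodes or DCs and 17 after MC903, some of them in only 1 of the groups. Those enter through the group where they are higher, so no count of regulators apart in T cell-like barcodes is given. Sesn1, which restrains mTORC1, was high in T cell-like barcodes (3.46 and 2.30). Its relative Sesn2, at 29.4 and 39.8 CPM in DCs, had 4.50 and 2.42 CPM there. Those levels rest on very few UMIs, since 3 UMIs make 13.5 and 7.25 CPM in these groups. Myc, which drives transcription of ribosome genes, led in B cell-like barcodes (3.99 and 4.77), and Mxd1, its antagonist, was far lower there than in DCs (-4.52 and -4.14). Sesn1 and Myc could enter through the lymphocyte group where they are higher, which favours large ratios. Their ratios were therefore not read as a result on regulation. Mxd1 stood at 508 and 545 CPM in DCs of the untreated and MC903 captures. In BFP+ against BFP- DCs 1 of 12 was higher (Tsc1, 0.65) and 1 lower (Larp1, -0.70) untreated, where 11.7% of genes were apart, and 0 of 13 were apart after MC903, where 4.79% were. Among 10 near namesakes left out by the rule, Rpl22l1, a copy of Rpl22, had the highest ratio in T cell-like barcodes (316 and 1171 CPM untreated, 1.89), while Rpl22 itself stood at 1767 and 2559 CPM. Rps3a1, a full ribosomal protein whose name falls outside the rule, stood at 3804 and 7014 CPM (0.88) and so moved with the members.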

How the data were processed

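UMI counts per gene, hashtag and barcode were deposited by the authors, and per the file headers they come from Cell Ranger 3.1.0. The submitters' processing notes name GRCm38 as the build. Members, marker lists and gene lists were chosen with earlier results of these data known. Barcodes of 500 or more genes with up to 10% mt- UMIs were thinned without replacement to 2000 UMIs (seed 1), gated by at least 2 markers, and assigned to a population by a hashtag holding at least 80% of at least 10 counts. UMIs were summed per group. Log2 ratios carry exact conditional binomial intervals and shares exact Clopper-Pearson intervals, which treat UMIs as independent draws. Named genes were the 5 most abundant members, the 4 with the largest ratio each way per comparison, the l copies with their partners, the stalk proteins and Rpsa. Genes named beyond these, such as Rps13, Rpl6, Rps10 and Rpl36a in some comparisons, were chosen after their values were seen. The values of 1 member that the rule names are not reported here; it stays in the counts. Alternatives used no thinning, 1000 UMIs, barcodes of 4000 to 8000 UMIs, 3 markers, at most 5% mt- UMIs, HTODemux calls (Seurat 5.3.0, quantile 0.99), TMM scaling (edgeR 4.0.16) and no CPM minimum. Other mature DCs alone, and these alternatives for single DC types, were added after seeing the data. Calculations were tested on simulated data in Python 3.11.15 and R 4.3.3. Gene positions follow GRCm38.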

Additional observations from a re-analysis of the deposited data

Results flagged for a closer look

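A few members lay on opposite sides of 0 in a pair of comparisons, each with a counting interval that leaves out 0. The difference itself was not tested, since each population was 1 pool. In BFP+ against BFP- DCs, Rps27a, made as a fusion with ubiquitin, had a log2 ratio of -0.094 untreated and 0.095 after MC903. Rpl10a had -0.13 untreated and 0.12 after MC903. For MC903 against untreated, Rpl12 had a log2 ratio of 0.14 in BFP+ and -0.078 in BFP- DCs. Rpl32 had 0.14 in BFP+ and -0.052 in BFP- DCs. Rps24 had 0.10 and -0.077, and Rps18 had 0.11 and -0.096, in BFP+ and BFP- DCs. In each of these 6 genes the differences are under 1.5-fold.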

How the results depend on the processing

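No paired analysis was possible because each population was 1 pool and no test was made. The T cell-like and B cell-like shares stayed above DCs in both captures, and the MC903 share below untreated in both DC populations, under each alternative run. The matrices used here have no Malat1 row, so that alternative left out mitochondrial genes alone. The log2 ratio of shares for T cell-like barcodes over DCs untreated was 0.57 without thinning, 0.57 at 1000 UMIs, 0.76 at 4000 to 8000 UMIs, 0.62 with 3 markers, 0.60 with at most 5% mt- UMIs and 0.68 without mitochondrial genes. After MC903 it was 0.99 without thinning, 0.98 at 1000 UMIs, 0.85 with at most 5% mt- UMIs and 0.996 without mitochondrial genes. For B cell-like barcodes untreated it was 0.41 at 1000 UMIs, 0.39 at 4000 to 8000 UMIs, 0.44 with 3 markers and 0.49 without mitochondrial genes. After MC903 it was 0.78 without thinning, 0.74 at 1000 UMIs, 0.77 at 4000 to 8000 UMIs, 0.73 with 3 markers and 0.80 without mitochondrial genes. For BFP+ over BFP- DCs untreated the ratio of 0.0075 turned to -0.0045 at 1000 UMIs, -0.0019 with 3 markers, -0.0043 with at most 5% mt- UMIs and -0.0043 in other mature DCs alone, and was 0.042 at 4000 to 8000 UMIs and 0.043 with HTODemux calls. After MC903 it was 0.093 without thinning, 0.070 at 4000 to 8000 UMIs, 0.091 with at most 5% mt- UMIs, 0.095 without mitochondrial genes and 0.076 in other mature DCs alone. For MC903 over untreated in BFP+ DCs it was -0.072 at 1000 UMIs, -0.026 at 4000 to 8000 UMIs, -0.099 with at most 5% mt- UMIs, -0.094 without mitochondrial genes and -0.074 with HTODemux calls. In BFP- DCs it was -0.16 without thinning, -0.055 at 4000 to 8000 UMIs, -0.18 with 3 markers, -0.19 with at most 5% mt- UMIs, -0.18 without mitochondrial genes, -0.13 with HTODemux calls and -0.16 in other mature DCs alone. Members 1.5-fold apart, 0 in both reporter comparisons, numbered 2 and 2 (untreated and MC903) with no CPM minimum and 1 untreated at 1000 UMIs. For treatment, 1 in each population, they numbered in BFP+ DCs 0 under TMM, with at most 5% mt- UMIs, with 3 markers and without thinning, 4 at 4000 to 8000 UMIs and 3 with no CPM minimum. In BFP- DCs they numbered 0 with HTODemux calls and without thinning and 2 with no CPM minimum. The cause of these shifts was not tested, except that no CPM minimum adds genes of few UMIs. HTODemux called 1442 untreated BFP+ and 697 BFP- DCs where the dominant hashtag gave 392 and 3172, so the untreated populations rest on the choice of hashtag rule. TMM scaling moved all ratios by 0.035 for the reporter after MC903 and by 0.054 and 0.045 for treatment. Genes higher were then 52.2% instead of 41.9%, 57.4% instead of 46.9%, and 59.9% instead of 52.7% of genes apart. Under it 67, 33 and 6 of 77 members lay above 0 in those 3 comparisons. The median member was then at 0.12, -0.031 and -0.14, and the median of all genes at 0.012, 0.053 and 0.075. The lymphocyte groups of 111 to 226 barcodes, and of 17 to 52 with at most 5% mt- UMIs, limit what can be read for members of few UMIs.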
